A study of Mus musculus with 24 samples.

Results

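The regulatory T cell genes examined here are 7 genes that mark or equip CD4 T cells of the suppressive lineage: Foxp3, Gpr83, Il2ra, Il2rb, Ikzf2, Nrp1 and Itgae. A probeset, the set of short probes that reads 1 transcript on the array, was taken as a member when the array's annotation gave 1 of these symbols or an older alias, which found 11 of the 22626 probesets. Il2ra and Il2rb had 2 probesets each and Nrp1 had 3, so probesets of 1 gene are repeated readings and not separate genes. Of the 11 probesets, 8 passed a filter on dim signals (1 or more of the 8 conditions with no array under 32) and were tested: those of Gpr83, Il2ra, Il2rb and Nrp1. The single probesets of Foxp3, Ikzf2 and Itgae did not pass.

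Thymocytes were sorted from healthy female mice of 6 to 8 weeks, all carrying the 3A9 T cell receptor (TCR) transgene, which recognizes a hen egg lysozyme peptide, on the B10 or the NOD background, both with the H2k haplotype. NOD mice are prone to autoimmune diabetes, and B10 mice are not. Pre-selection cells (PreS, CD4+CD8+CD69-, clonotype negative) came from TCR mice and from TCR insHEL mice, which also express lysozyme from an insulin promoter in the thymic medulla. S+ cells (CD4+CD8low CD69+, clonotype positive) came from TCR mice and are beginning positive selection, whereas S- cells have the same surface phenotype but came from TCR insHEL mice, where they meet their antigen and begin negative selection. In each strain there were 3 arrays of S+, 3 of S- and 6 of PreS (3 from each genotype), each array holding an independent pool of RNA from sorted cells, so the p-values measure the spread between pools, part of which may be technical. None of the populations was sorted for a regulatory T cell surface protein.

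Regulatory T cells are made in the thymus from CD4 thymocytes that bind self antigen strongly but are not deleted. Foxp3 is the transcription factor that fixes their identity. Il2ra (CD25) and Il2rb (CD122) are the alpha and beta chains of the interleukin-2 receptor, which together with the common gamma chain bind IL-2 with high affinity and signal through Jak kinases and STAT5. Gpr83 is a G protein-coupled receptor, Ikzf2 encodes the zinc finger factor Helios, Nrp1 is a receptor for semaphorins and VEGF, and Itgae is the integrin chain CD103, which pairs with the beta 7 chain to bind E-cadherin. Several of the genes have other uses in the thymus: Il2ra marks a stage of double negative thymocytes, and strong TCR signals can raise Il2ra in T cells that are not regulatory.

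Promoter sequences are shown for Gpr83, Il2ra and Nrp1, the tested genes with a window at hand, since each holds a start of transcription of a gene whose mRNA changed with selection. RefSeq promoter windows (GRCm38.p6, 250 bases before to 50 after a listed transcription start) were at hand for 4 of the 7 genes: Gpr83 at chr9:14859960-14860259, Il2ra at chr2:11642542-11642841, Nrp1 at chr8:128358823-128359122, and Foxp3 with 2 windows at chrX:7579426-7579725 and chrX:7580233-7580532, all on the plus strand. The windows of Gpr83 and Nrp1 begin inside the annotated gene, since each sits on a start downstream of the first base of its gene. The sequences below run 5' to 3', with matches to 6 short motifs in capitals.
Gpr83 promoter: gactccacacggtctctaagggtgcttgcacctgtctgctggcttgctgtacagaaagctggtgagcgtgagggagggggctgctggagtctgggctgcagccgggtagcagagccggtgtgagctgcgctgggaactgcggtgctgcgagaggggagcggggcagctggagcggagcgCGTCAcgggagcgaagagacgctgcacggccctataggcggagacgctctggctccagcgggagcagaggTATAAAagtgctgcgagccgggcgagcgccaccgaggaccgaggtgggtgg
Il2ra promoter: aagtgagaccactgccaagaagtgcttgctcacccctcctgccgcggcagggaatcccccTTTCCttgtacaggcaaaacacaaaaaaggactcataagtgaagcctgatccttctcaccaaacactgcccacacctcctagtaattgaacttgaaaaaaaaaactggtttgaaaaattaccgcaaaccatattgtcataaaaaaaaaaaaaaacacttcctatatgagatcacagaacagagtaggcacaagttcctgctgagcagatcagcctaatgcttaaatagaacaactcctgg
Nrp1 promoter: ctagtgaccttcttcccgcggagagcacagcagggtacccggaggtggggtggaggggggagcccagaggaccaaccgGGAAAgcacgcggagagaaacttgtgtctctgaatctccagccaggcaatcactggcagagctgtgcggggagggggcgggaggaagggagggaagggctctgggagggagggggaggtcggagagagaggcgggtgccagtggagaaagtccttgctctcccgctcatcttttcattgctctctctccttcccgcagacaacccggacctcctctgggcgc
The motifs searched on both strands were the NFAT core GGAAA, the STAT site TTCNNNGAA, the AP-1 site TGANTCA, the Runx site TGTGGT, the cyclic AMP response element core TGACG and the TATA box TATAAA. The Gpr83 window held 1 cyclic AMP response element core and 1 match to the TATA box letters, which occur in 20.8% and 13.6% of the 32817 windows searched. The TATAAA match began at base -1 from the listed start, so it lies across that start and not upstream of it. The windows of Il2ra and Nrp1 held 1 NFAT core each and none of the other motifs, and an NFAT core occurs in 61.3% of all windows. Of the Foxp3 windows, the first held 2 NFAT cores and 1 TATA box, and the second 1 NFAT core overlapping 1 STAT site, a motif found in 8.29% of windows. The Gpr83 and Nrp1 windows were rich in GC (67% and 64%), whereas that of Il2ra was not (42.7%, against a median of 52.7%).

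Gpr83 was the member that changed most between PreS and the selecting populations. Its gene lies at chr9:14859880-14870789 (GRCm38.p6, as for all genes here), and its probeset was near background in PreS cells of both strains. In B10 PreS its signal ran from 1.6 through a median of 4.6 to 16.9, and in NOD PreS from 1.4 through 2.45 to 3.9. In B10 S+ the 3 arrays read 160.1, 254.6 and 352.5, and in B10 S- they read 117.2, 123.9 and 144.8. Every selecting array in B10 was thus above every PreS array, and the S- arrays were all under the S+ arrays. In NOD S+ the signals were 151.8, 269.2 and 327, and in NOD S- 115.4, 165.3 and 205.3, so that the S+ and S- groups overlapped in this strain. The log2 fold change of Gpr83 in S+ against PreS was 5.59 in B10 (standard error 0.58, limma adjusted p = 1.6e-05) and 6.40 in NOD (0.34, adjusted p = 3.0e-07). Against the same PreS arrays, S- gave 4.63 in B10 (adjusted p = 2.0e-04) and 5.75 in NOD (adjusted p = 5.9e-07). Since PreS lies near background, the size of these folds depends on the floor: with signals under 16 set to 16, S+ against PreS fell to 3.85 in B10 and 3.79 in NOD, and S- against PreS to 2.91 and 3.17. With the day of hybridization as a block, S- against PreS no longer passed in B10 (3.24, adjusted p = 0.0576) or in NOD (6.27, adjusted p = 0.144).

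**Figure D1:**
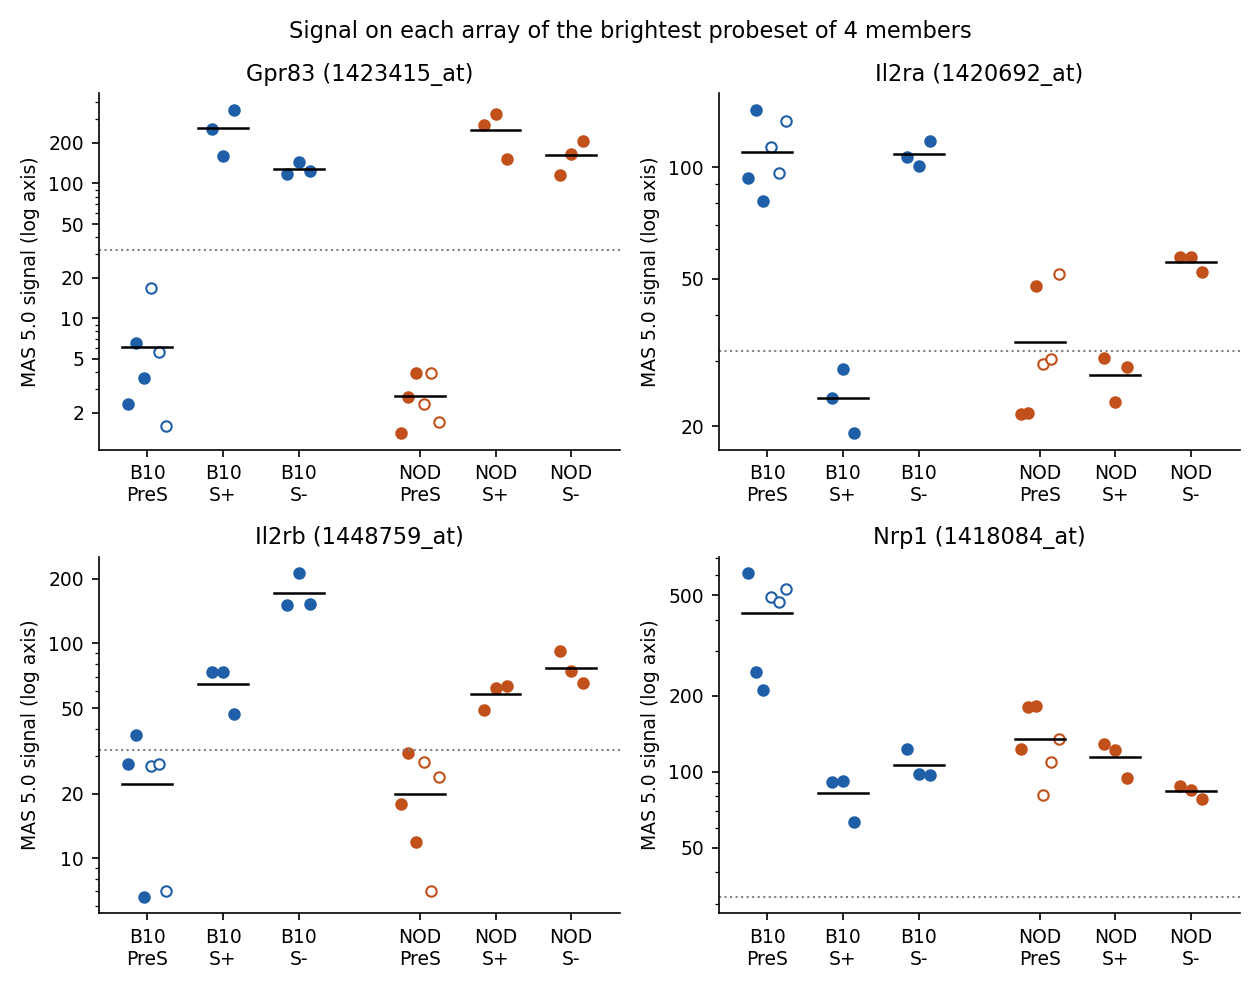
MAS 5.0 signal on each array (log axis) for the brightest probeset of Gpr83, Il2ra, Il2rb and Nrp1 in B10 (blue) and NOD (orange). Open circles are PreS arrays from TCR insHEL mice, short black lines are group means and the dotted line marks the filter at 32. Gpr83 is near background in all 12 PreS arrays, Il2ra is lower in all 3 B10 S+ arrays than in any B10 PreS or S- array, Il2rb is highest in B10 S-, and Nrp1 is highest in B10 PreS.

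The difference in Gpr83 between S- and S+ was -0.96 on the log2 scale in B10 (95% interval -2.41 to 0.49, adjusted p = 0.668) and -0.65 in NOD (-1.51 to 0.20, adjusted p = 0.803). Neither passed the test, and the strains differed by 0.31 in this change (-1.41 to 2.03). Between the strains Gpr83 did not pass in any population, at -0.84 in PreS (adjusted p = 0.285), -0.03 in S+ and 0.27 in S-. The 95% intervals of these differences ran from -1.70 to 0.02 in PreS, from -1.25 to 1.18 in S+ and from -0.94 to 1.49 in S-.

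Il2ra was the member that separated S- from S+ in B10. Its gene lies at chr2:11642792-11693194, and the brighter of its 2 probesets (1420692_at) read 81.3 to 143.1 in B10 PreS with a median of 105.1. In B10 S+ the 3 arrays read 19.1, 23.8 and 28.6, and in B10 S- they read 101, 106.7 and 118. The S+ arrays were below all PreS and all S- arrays, and S- overlapped PreS. Il2ra thus fell by 2.29 in S+ against PreS (standard error 0.20, adjusted p = 3.4e-06) and S- exceeded S+ with a log2 difference of 2.18 (0.23, adjusted p = 3.0e-04), while S- against PreS was -0.11 (-0.54 to 0.32, adjusted p = 0.784). Within the 2 hybridization days that held both an S- and an S+ array of B10, the difference was 2.24 and 1.95. All 3 S+ signals lie under 32, so the size of these differences rests on signals near background.

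The dimmer Il2ra probeset (1420691_at) gave the same order for S+ but not for S-. It averaged 39.2 ± 8.30 in B10 PreS (SD, n = 6), 17.9 ± 5.89 in S+ (n = 3) and 84.0 ± 27.6 in S- (n = 3). It fell by 1.29 in S+ against PreS (adjusted p = 0.0022) and rose by 2.22 in S- against S+ (adjusted p = 0.00135). Unlike the brighter probeset it also rose in S- against PreS, by 0.93 (adjusted p = 0.0267), and this call was lost without B10 S- replicate 2 (0.98, adjusted p = 0.0730), B10 S- replicate 3 (0.71, adjusted p = 0.141) or B10 PreS TCR insHEL replicate 3 (0.90, adjusted p = 0.0561), and with day as a block (0.79, adjusted p = 0.328).

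In NOD the levels of Il2ra lay closer together. The brighter probeset read 21.6 to 51.4 in NOD PreS with a median of 29.9, then 23.3, 28.8 and 30.5 in S+, and 52.1, 57.1 and 57.2 in S-. By signal all 3 S- arrays were above all S+ and all PreS arrays, and S+ overlapped PreS. On the standardized log2 scale of the fits, S- (5.58 to 5.84) still lay above S+ but overlapped PreS, whose highest array read 5.78. The change in S- against S+ was 1.09 (standard error 0.33, unadjusted p = 0.00544, limma adjusted p = 0.803), with 1.12 and 0.83 within the 2 days that held both populations. S+ against PreS was -0.50 (adjusted p = 0.257) and S- against PreS 0.59 (adjusted p = 0.202). None of these passed, nor did any of the dimmer probeset, whose NOD S- arrays (37.8, 38.5 and 40.4) lay between its 3 S+ arrays (19.1, 42.3 and 43.9).

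The strains differed in Il2ra before selection. In PreS the brighter probeset was 1.70 lower on the log2 scale in NOD (-1.70, standard error 0.20, adjusted p = 4.6e-06), with every NOD array under every B10 array. Within the 3 hybridization days that held PreS arrays of both strains the difference was -2.03, -2.06 and -0.88. The dimmer probeset gave -1.09 (adjusted p = 0.0637), again without overlap. In S+ the strains were close (0.09, -0.48 to 0.67), and in S- NOD was lower by an estimate of -0.998 (-1.58 to -0.42, adjusted p = 0.0609) with no overlap of the arrays, which did not pass. The change from PreS to S+ differed between the strains by 1.80 (standard error 0.34, limma adjusted p = 0.0185). This call was lost without B10 S+ replicate 3 (1.68, adjusted p = 0.0615), without NOD S+ replicate 1 (1.74, adjusted p = 0.0704) and with day as a block (2.02, adjusted p = 0.244). It was also lost without the 4 arrays of highest Gapdh 3' to 5' ratio described below, which left 1 NOD S+ array (1.93). All S+ arrays of both strains and the NOD PreS median of 29.9 lie under 32, so the size of this strain difference rests on signals near background. The change from S+ to S- differed by -1.09 (-1.91 to -0.27, adjusted p = 0.432), which did not pass, so the rise from S+ to S- was not shown to differ between the strains.

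Il2rb, at its brighter probeset, was higher in both selecting populations than in PreS. Its gene lies at chr15:78479256-78511621, and the brighter of its 2 probesets (1448759_at) read 6.6 to 37.6 in B10 PreS with a median of 27.15. It then read 47.1, 73.3 and 73.8 in B10 S+ and 150.6, 151.8 and 212.1 in B10 S-. In this strain the 3 populations did not overlap, in the order PreS, S+, S-. Against PreS it rose by 1.66 in S+ (standard error 0.49, adjusted p = 0.0321) and by 3.06 in S- (adjusted p = 0.00102), and S- against S+ was 1.39 (0.18 to 2.61, adjusted p = 0.335), which did not pass. In NOD PreS it read 7 to 31 with a median of 20.95, in NOD S+ 48.9, 62.3 and 63.6, and in NOD S- 65.3, 74.1 and 92. It rose by 1.46 in S+ (adjusted p = 0.0351) and by 1.91 in S- (adjusted p = 0.0112), and S- against S+ was 0.44 (standard error 0.49, adjusted p = 0.847) although the arrays did not overlap.

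The rises of Il2rb in S+ were lost under 8 of 21 alternatives in B10 and 9 of 21 in NOD. In B10 the call was lost without S+ replicate 1 (1.56, adjusted p = 0.0982) or S+ replicate 2 (1.57, adjusted p = 0.112). In NOD it was lost without any 1 of the 3 S+ arrays (adjusted p from 0.0629 to 0.132) or without PreS TCR replicate 3 (adjusted p = 0.0672), and the rise in NOD S- was lost without S- replicate 1 (1.83, adjusted p = 0.0554). Both S+ calls were also lost with no filter (adjusted p = 0.0855 in B10 and 0.0861 in NOD), with the methods' t-test (0.0874 and 0.0752), with the 3' to 5' ratio as a covariate (0.0820 and 0.0516) and without the 4 arrays of highest ratio (0.0982 and 0.191), which include 2 of the 3 NOD S+ arrays, and the B10 call with PreS arrays of the same genotype (0.0688). With day as a block the values were 0.98 in B10 S+ (adjusted p = 0.0716), 0.81 in NOD S+ (adjusted p = 0.875) and 1.40 in NOD S- (adjusted p = 0.999599). The rise in B10 S- passed under all 21 alternatives run, between 2.07 and 3.25. In S- all NOD arrays of Il2rb were under all B10 arrays, with a difference of -1.18 (-2.34 to -0.02, adjusted p = 0.336) that did not pass. The second Il2rb probeset (1417546_at) was kept through B10 S- alone, where it read 43.5, 57.2 and 63.1, against 13.1 ± 8.88 in NOD S+ and 16.7 ± 20.9 in NOD S-. It passed in no comparison, and its S- against PreS value in B10 was 1.64 (adjusted p = 0.0561). In NOD, where it averaged 16.7 ± 15.2 in PreS, its values against PreS were negative, -0.48 in S+ and -0.62 in S-.

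**Figure D2:**
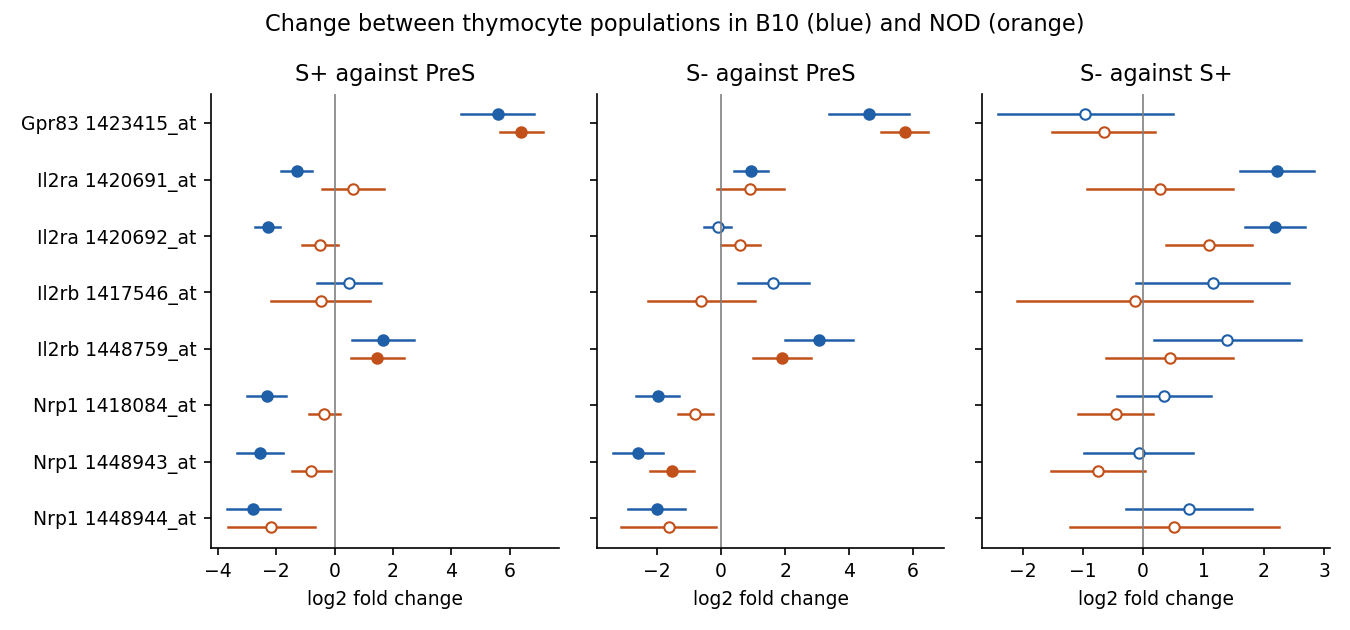
Log2 fold change (points) with 95% interval (lines) of the 8 tested member probesets in S+ against PreS, S- against PreS and S- against S+, in B10 (blue) and NOD (orange). Filled points passed limma at an adjusted p under 0.05. Nrp1 and Il2ra fell in S+ in B10 at all their probesets, no NOD probeset passed in S- against S+ (0% of all kept probesets did), and Gpr83 lies far to the right of all others against PreS.

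Nrp1 moved the other way, with its highest level in PreS of B10. Its gene lies at chr8:128358591-128505476. The brightest of its 3 probesets (1418084_at) ran from 210.2 through a median of 481 to 610.6 in B10 PreS, where the low end was set by 2 arrays from TCR mice at 210.2 and 248. In B10 S+ it read 63.3, 91 and 92.3, and in B10 S- 97.3, 97.9 and 123. Both selecting groups were below every PreS array, and by signal all S- arrays were above all S+ arrays. On the standardized log2 scale of the fits, S- replicate 3 (6.454) lay under S+ replicates 1 and 2 (6.468 and 6.467). Nrp1 fell by 2.33 in S+ against PreS (standard error 0.31, adjusted p = 1.4e-04) and by 1.99 in S- (adjusted p = 9.2e-04), and S- against S+ was 0.34 (-0.44 to 1.12, adjusted p = 0.808). The other probesets fell in B10 too: 1448943_at changed by -2.54 in S+ and -2.61 in S-, and 1448944_at by -2.78 and -2.02. With day as a block both lost their call in S- (-2.17, adjusted p = 0.0660, and -2.54, adjusted p = 0.144), and the brightest probeset kept it.

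In NOD, Nrp1 started lower and changed less. The brightest probeset ran from 81.3 through 129 to 183 in PreS, and read 94.5, 121.6 and 128.8 in S+ and 78.2, 85 and 87.8 in S-. S+ lay within the range of PreS, and all S- arrays were below all S+ arrays. The changes from PreS were -0.35 in S+ (adjusted p = 0.364) and -0.81 in S- (adjusted p = 0.0542), and neither passed. Of the other probesets only 1448943_at passed, in S- against PreS, where it fell by 1.54 (adjusted p = 0.00699), a call that was lost with day as a block (-1.87, adjusted p = 0.995).

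Between the strains, Nrp1 in PreS was lower in NOD by an estimate of -1.53 at the brightest probeset (standard error 0.23, adjusted p = 1.8e-04) with no overlap, and by -1.23 at 1448943_at (adjusted p = 0.0128) with overlap. At the third probeset the value was -1.06 and did not pass. Within the 3 days that held PreS arrays of both strains the brightest probeset gave -1.72, -0.93 and -1.72. In S+ and S- the strains differed by 0.45 and -0.35, which did not pass. The change from PreS to S+ differed between the strains by 1.98 (standard error 0.40, adjusted p = 0.0255), and this call was lost under 9 of 28 alternatives, among them leaving out B10 S+ replicate 2 (2.06, adjusted p = 0.0717), B10 S+ replicate 3 (1.82, adjusted p = 0.0989), NOD S+ replicate 1 (1.89, adjusted p = 0.105), NOD S+ replicate 2 (1.93, adjusted p = 0.0787), B10 PreS TCR insHEL replicate 3 (1.90, adjusted p = 0.0512) or NOD PreS TCR insHEL replicate 2 (1.92, adjusted p = 0.0521). It was also lost with day as a block (1.71, adjusted p = 0.462). Leaving out the 4 arrays of highest Gapdh 3' to 5' ratio, which left 1 NOD S+ array, lost it too (1.67). The change from PreS to S- differed by 1.18 (0.34 to 2.02, adjusted p = 0.258).

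**Figure D3:**
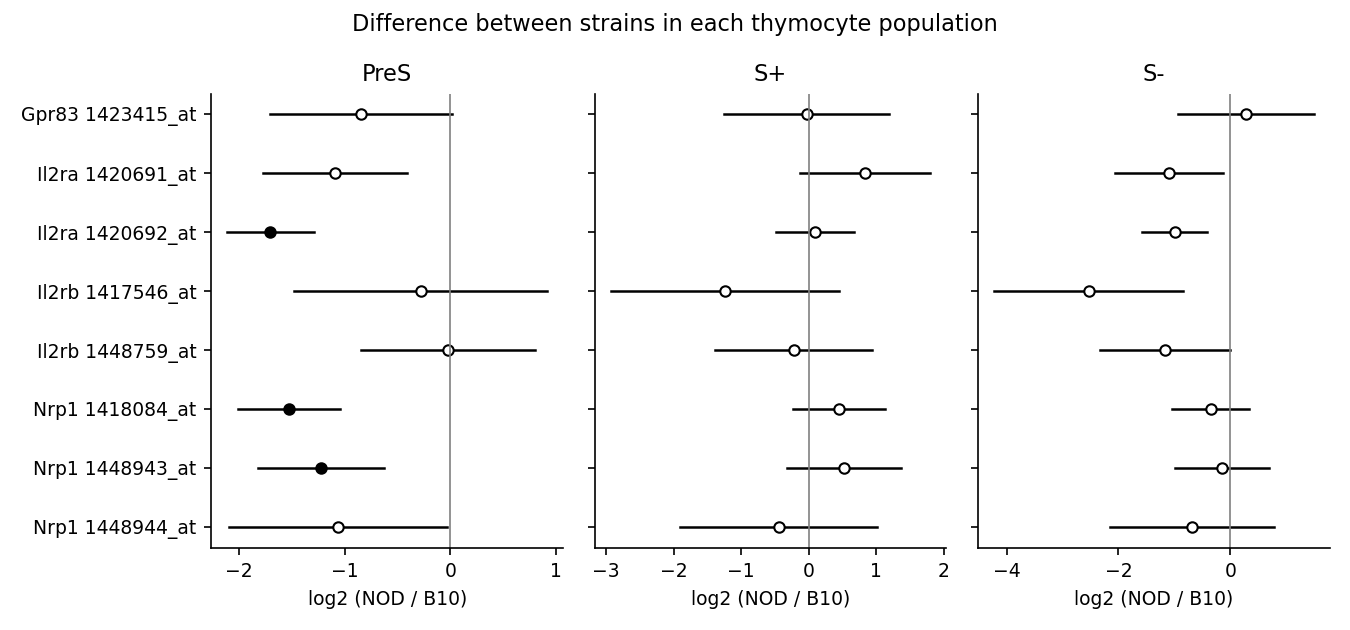
Log2 ratio of NOD to B10 (points) with 95% interval (lines) for the 8 tested member probesets in PreS, S+ and S-. Filled points passed limma at an adjusted p under 0.05. The 3 filled points, at 1 Il2ra and 2 Nrp1 probesets, are all in PreS, where 4.13% of all kept probesets passed, and all to the left of 0.

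In PreS the strains also differed in genes listed as double negative thymocyte markers and, with overlap, in a measure of RNA quality. The 3' to 5' signal ratio of the Gapdh control probesets, which rises as RNA is degraded or amplified from short templates, ran from 2.31 to 7.81 in B10 PreS and from 2.99 to 28.9 in NOD PreS. The 2 NOD PreS arrays of lowest ratio (2.99 and 4.01) also had the highest Il2ra signals of their group, 47.8 and 51.4, both under the lowest B10 signal. At the brightest Nrp1 probeset these 2 arrays read 183 and 134.9, beside 180.4 on the array of ratio 16.6 and 81.3 on that of ratio 28.9. With the ratio as a covariate the PreS differences were -1.62 for Il2ra (adjusted p = 1.4e-05) and -1.56 for Nrp1 (adjusted p = 3.2e-04), and without the 4 arrays of highest ratio they were -1.70 and -1.42. Among 4 double negative thymocyte markers, 3 were lower in NOD PreS: Dtx1 at 174 against 683 in B10, Notch3 at 180.4 against 439 and Hes1 at 21.1 against 50.2. The other marker, Kit, was not called, and 2.48% of all kept probesets were called lower in NOD PreS. The summed signal of the 4 markers was 186 to 521 in NOD PreS and 708 to 1742 in B10 PreS, without overlap. In S+ the sum was 739 to 991 in NOD and 818 to 1806 in B10. In S- it was 780 to 972 and 577 to 759, so the sum was not confined to PreS. The part of these markers in the Il2ra and Nrp1 differences was not tested. In bulk samples such as these, fewer cells of a type and less RNA per cell cannot be told apart.

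Foxp3 itself was read near background in all populations. Its gene lies at chrX:7579676-7595243, and its single probeset (1420765_a_at) reached 32 on 1 of 24 arrays, a NOD S- array at 33.5. Its median rank on the array was between the 31.0th and the 43.4th percentile in all 6 merged groups. In B10 it averaged 18.9 ± 5.91 in PreS (n = 6), 22.4 ± 8.41 in S+ and 28.8 ± 2.51 in S- (n = 3 each), and the arrays of the 3 populations overlapped. In NOD the averages were 14.6 ± 3.95, 25.7 ± 3.66 and 20.9 ± 11.0, and the 3 S+ arrays (21.7, 26.4 and 28.9) lay just above the highest PreS array at 21. In a fit without the filter the log2 change in NOD S+ against PreS was 0.54 (-0.14 to 1.23, adjusted p = 0.370), and no comparison of Foxp3 passed.

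Ikzf2 and Itgae were also low. The Ikzf2 probeset (1421643_at, gene at chr1:69531207-69687351) read between 0.9 and 12.6 on the 24 arrays, far under the filter, so no level of Helios mRNA was measured with it. The Itgae probeset (1449216_at, gene at chr11:73090505-73147449) read between 2.2 and 56.2. Its highest values were 48.3 and 56.2 in B10 S- and 52.6 in NOD S+, but the third B10 S- array read 16.3 and the other NOD S+ arrays 19.4 and 33.9, so the spread within a group was as wide as that between groups. Without the filter neither gene passed in any comparison. Itgb7, the beta 7 chain that pairs with Itgae, was by contrast well measured and rose from PreS to both selecting populations, from 352 ± 42.0 to 1322 ± 305 and 961 ± 155 in B10 (1.88 and 1.43) and from 244 ± 84.9 to 835 ± 420.2 and 1029 ± 144 in NOD (1.74 and 2.09).

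**Figure D4:**
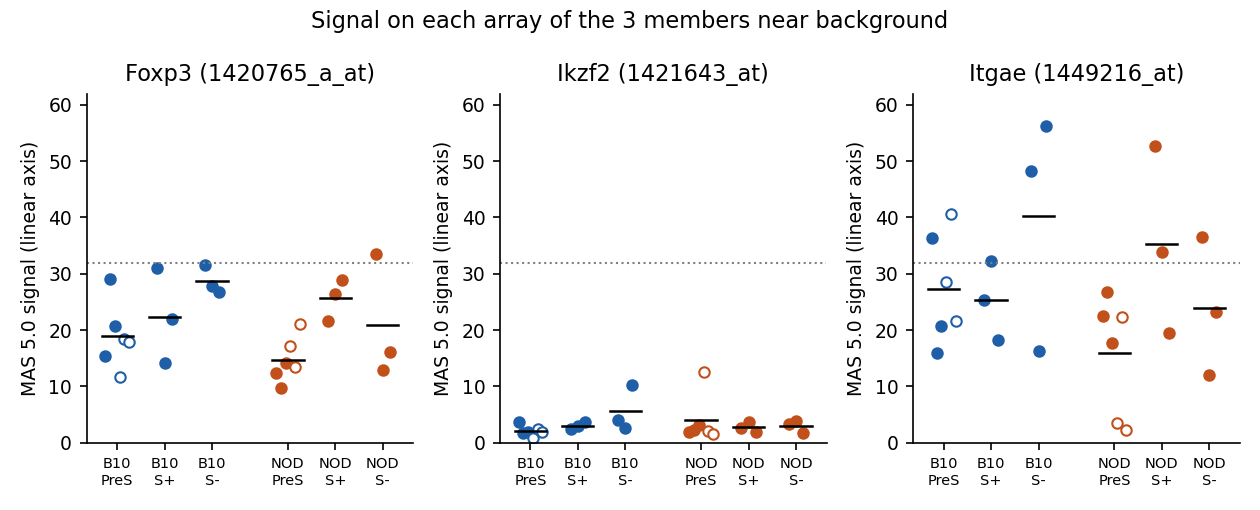
MAS 5.0 signal on each array (linear axis) for Foxp3, Ikzf2 and Itgae, with symbols as in the plot of the brighter members. Foxp3 is above the dotted filter line at 32 on 1 array, Ikzf2 on none, and the Itgae arrays scatter on both sides of it in all groups but NOD PreS, where all lie under it.

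Counted over the 8 tested probesets, 2 were higher and 5 lower in B10 S+ against PreS, where limma called 16.8% of all 12838 kept probesets (7.37% higher and 9.44% lower). In B10 S- against PreS 3 were higher and 3 lower, where 11.2% of all were called (4.42% and 6.80%). In B10 S- against S+ both Il2ra probesets were higher and no member lower, where 1.67% of all were called (1.29% and 0.374%). In NOD S+ against PreS 2 were higher and none lower, where 14.8% of all were called (6.13% and 8.66%). In NOD S- against PreS 2 were higher and 1 lower, where 11.2% of all were called (5.51% and 5.68%). In NOD S- against S+ limma called 0 of 8 members and 0% of all, with 1 member at an unadjusted p under 0.05 and none by the methods' t-test after adjustment.

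Between the strains no member was higher and 3 were lower in NOD PreS, where 4.13% of all kept probesets were called (1.65% higher and 2.48% lower). In S+ limma called 0 members and 3.70% of all (1.84% and 1.86%), with no member at an unadjusted p under 0.05. In S- it called 0 members and 2.32% of all (1.17% and 1.15%), with 4 members at an unadjusted p under 0.05. The change from PreS to S+ differed between the strains at 2 members, both with a positive difference (NOD minus B10), where 0.358% of all were called (0.312% and 0.0467%). In the change from PreS to S- the strain difference was called at 0 members and 0.101% of all (0.0623% and 0.0389%), with 3 members at an unadjusted p under 0.05. In the change from S+ to S- it was called at 0 members and 0.148% of all (0.0156% and 0.132%), with 2 members at an unadjusted p under 0.05. The methods' t-test called no member after adjustment in any of the 4 comparisons in which limma called none. These counts hold repeated readings of 4 genes. Gpr83 and the brighter Il2rb probeset passed the filter through S+ and S- alone, and the dimmer Il2rb probeset through B10 S- alone. The Nrp1 probeset 1448944_at passed through B10 PreS alone. Both Il2ra probesets passed through groups of B10 PreS, B10 S- and NOD S-, and through no S+ group. A difference from the groups where these probesets are low was thus part of how they were kept, and the counts are a description only.

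No member passed the test between PreS cells of the insHEL and the TCR genotype. Among PreS arrays, TCR insHEL against TCR gave no member call in B10 (0% of all kept probesets, no member at an unadjusted p under 0.05) or in NOD (0.0312%, all of them lower, with 1 member at an unadjusted p under 0.05), and the methods' t-test called none after adjustment in either strain. The member at an unadjusted p under 0.05 was the Nrp1 probeset 1448943_at in NOD, at -0.79 (-1.43 to -0.14, adjusted p = 0.442), and the brightest Nrp1 probeset gave -0.52 in NOD and 0.58 in B10. For Il2ra the values were 0.14 in B10 (-0.38 to 0.65) and 0.37 in NOD (-0.33 to 1.07) at the brighter probeset.

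Of 22 other genes of regulatory T cells on the array 16 were tested, and the rest, among them Il10, Lag3, Fgl2 and Nt5e, did not pass the filter. In B10 8 rose and 1, the inhibitory receptor gene Pdcd1 (PD-1), fell in S+, and 13 rose and none fell in S-. In NOD 7 rose in S+ and 9 in S-, and none fell. Over all kept probesets the shares called higher were 7.37% and 4.42% in B10 and 6.13% and 5.51% in NOD. Tnfrsf9, Tnfrsf4, Tnfrsf18 and Tnfrsf1b of the TNF receptor family were among the genes that rose in all 4 comparisons with PreS. Tnfrsf9 (4-1BB) averaged 35.1 in B10 PreS, 282 in S+ and 1050 in S-, and in NOD 39.2, 242 and 675. Tnfrsf4 (OX40) averaged 94.8, 548 and 1370 in B10 and 93.6, 496 and 709 in NOD, and Tnfrsf18 (GITR) 161, 768 and 1582 in B10 and 209.9, 634 and 1104 in NOD. In B10 S- against S+ Tnfrsf9, Tnfrsf4 and Tnfrsf18 were higher, by 1.91, 1.33 and 1.06 (adjusted p = 0.0434, 0.0192 and 0.0301), as was Pdcd1, by 1.66 (adjusted p = 0.00472). Of all kept probesets, 1.29% were called higher in B10 S- against S+. In NOD no gene of the list passed between S- and S+, where 0% of all kept probesets were called. The folate receptor family gene Izumo1r (FR4) had its highest mean in S+, as Gpr83 did, at 575 in B10 and 538 in NOD. These receptors are also raised by TCR signals in T cells of other kinds.

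**Figure D5:**
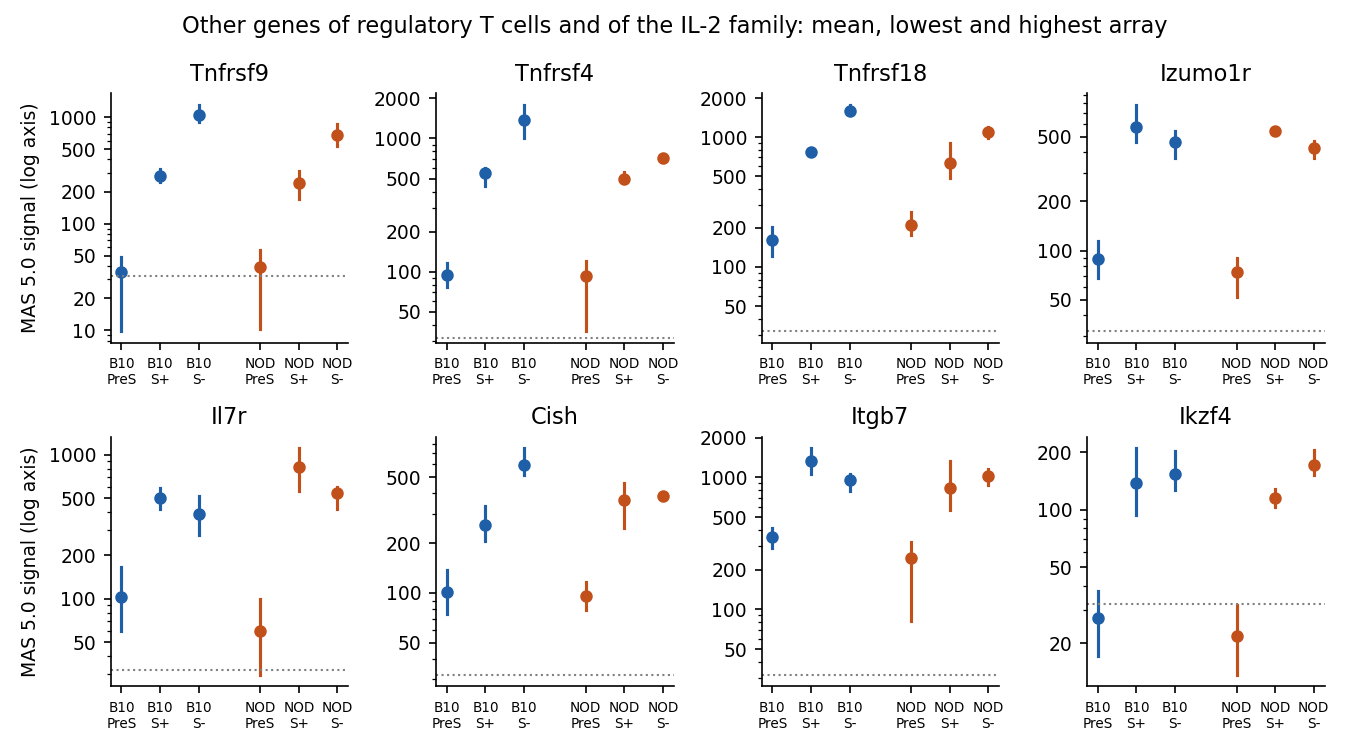
Mean MAS 5.0 signal (points, log axis) with the lowest and highest array (lines) for 8 genes near the members in function, in B10 (blue) and NOD (orange). Tnfrsf9, Tnfrsf4 and Tnfrsf18 have higher means in S- than in S+ in both strains, with the test passed in B10 only, while Il7r and Izumo1r have higher means in S+.

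Of 16 genes of IL-2 receptor signalling on the array, 12 were tested. The ligand gene Il2 was near background, with group means from 3.37 to 6.10, and Il2rg, the common gamma chain, was not analysed here. Cish, an inhibitor that STAT5 induces, rose from 102 in B10 PreS to 257 in S+ and 597 in S-, and the S- level exceeded that of S+ (log2 difference 1.24, adjusted p = 0.0358). In NOD it rose from 95.9 to 367 and 388, without a call between S- and S+, where 0% of all kept probesets were called. Il7r, the receptor chain for interleukin-7, rose in all 4 comparisons with PreS, by 2.30 and 1.88 in B10 and by 3.79 and 3.11 in NOD. Jak3, the kinase bound to the common gamma chain, rose in S- in both strains (0.81 and 1.32), and Socs3 fell in B10 S- by 1.16 but rose in NOD S+ by 1.39. In all, 2 genes rose in B10 S+, 3 rose and 1 fell in B10 S-, 4 rose in NOD S+ and 3 in NOD S-. In the same order 7.37%, 4.42%, 6.13% and 5.51% of all kept probesets were called higher. In PreS, Socs3 was lower in NOD by an estimate of -1.51 (adjusted p = 0.00295).

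Among 24 genes on the array known to regulate Foxp3 transcription, 19 were tested. In B10 5 rose in S+, and 5 rose and 1 fell in S-, and in NOD 5 rose in S+ and 6 in S-, beside shares of all kept probesets called higher of 7.37% and 4.42% in B10 and 6.13% and 5.51% in NOD. Irf4, Bach2, Nr4a1 and Ikzf4 rose in all 4 comparisons with PreS. Nr4a1 (Nur77), an immediate target of TCR signals, averaged 173 in B10 PreS, 843 in S+ and 1813 in S-, and 94.5, 658 and 1256 in NOD. Ikzf4 (Eos), the relative of Helios, averaged 27.0 in B10 PreS, 139 in S+ and 154 in S-, and 21.8, 116 and 171 in NOD. Thus an Ikaros family member was measured in the selecting cells where Ikzf2 was not. Of the 12 partners and ligands of Nrp1 and Itgae on the array 7 were tested. Besides Itgb7, the semaphorin gene Sema4a rose in all 4 comparisons with PreS (1.68 and 1.46 in B10, 2.79 and 2.32 in NOD), and Nrp2 rose in B10 S- (1.13).

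The genes whose pattern over the 8 group means lay nearest to a member were found among 7827 genes by Pearson correlation of log2 values, as a description over 8 points that share the PreS to selected contrast. For Gpr83 they were Slc25a45 (r = 0.995), Tnfsf11 (0.994), Izumo1r (0.991), Nab2 (0.991) and Trio (0.991). For Il2rb they were Tnfrsf4 (0.988), Rora (0.982), Gnpnat1 (0.982), Gadd45b (0.979) and Prnp (0.978). Il2ra had no neighbour as close, the nearest being Stimate (0.941), Smarcd1 (0.932), Pno1 (0.930), Tbrg4 (0.925) and Epcam (0.918). For Nrp1 they were Gpr19 (0.977), Got2 (0.963), Rdm1 (0.954), Arsi (0.95) and Recql (0.946). Foxp3 and Itgae, near background, were closest to S100a4 (0.954) and Ywhag (0.985), and Ikzf2 to Reln (0.915).

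Among 8 tested thymocyte markers, Rag1 averaged 1046 in B10 PreS and 119 in S+, and Ccr7 31.0 and 848. Against PreS, 3 of the 8 rose and 4 fell in B10 S+, and 1 rose and 5 fell in B10 S-. In NOD 2 rose and 4 fell in S+, and 1 rose and 3 fell in S-, beside the shares of all kept probesets given above. Cd4 averaged 995 in B10 S+ and 316 in B10 S-, where the means of Il2ra and Il2rb were above those of S+. Transcripts of other cells were present in all groups. The summed signal of 9 myeloid and dendritic markers was 914 to 1886 in B10 S+ and 3315 to 4919 in NOD S+. Cd74, H2-Eb1 and Itgax were higher in NOD S+ than in B10 S+, where 1.84% of all kept probesets were called higher and no member passed. Of 6 NK and cytotoxic markers 3 had group means of at least 32, and their summed signal was 2410 to 4025 in B10 PreS, 468 to 854 in S+ and 1880 to 2309 in S-, and 2538 to 5774, 1027 to 1607 and 1014 to 1876 in NOD. Gzma, a granule protease, averaged 2869 in B10 PreS, 408 in S+ and 1694 in S-, and 3863, 1032 and 1138 in NOD. The 3 tested markers of this list had a median log2 change in B10 of 0.06 in S+ against PreS and 0.15 in S- against PreS. In B10 S- against S+ the median was 0.87. The summed signal covers all 6 markers, Gzma included. That sum was lower in B10 S+ than in B10 PreS, while the median change over the 3 tested markers was not negative. Kit was higher in B10 S- than in S+ (184 against 29.7). The part of these markers in the member results was not tested. The 4 arrays of Gapdh ratio above 20 were NOD S+ replicates 1 and 2, B10 S+ replicate 1 and NOD PreS TCR insHEL replicate 1. Without them 6 members were called in B10 S+ against PreS, 6 in B10 S- against PreS, 2 in B10 S- against S+, 1 in NOD S+ against PreS, 4 in NOD S- against PreS, 4 between the strains in PreS and 0 for the strain difference in S+ against PreS.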

How the data were processed

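Total RNA was extracted from sorted, pooled thymocytes, taken through in vitro transcription 2 times and hybridized to 24 Affymetrix GeneChip 430A arrays of 1 lot on 9 days. The authors deposited MAS 5.0 signals, an intensity on a linear scale, with the trimmed mean of every array brought to 150. Hybridization days came from the deposited experiment files. From the signals 64 control probesets were removed, each 0 was replaced by 0.1, and log2 signals were standardized to the same mean and variance on each array. Whether arrays overlapped was judged on the signals before this standardization unless stated. Comparisons were fitted with limma 3.58.1 (R 4.3.3), within each strain on 12 arrays or between strains on 24, with Benjamini-Hochberg adjustment over the 12838 kept probesets at 0.05, and the fit was tested on simulated data. The methods' t-test, other scalings, floors and filters, replicate number and day as blocks, and leaving out each array were alternatives. The 3' to 5' ratio as a covariate and leaving out its 4 highest arrays were added after seeing the data. The number of arrays limits the precision, and pools are the only replicates, with correlation from 0.843 to 0.967. Members and gene lists were chosen with earlier results of these data known. All members were named. Of other genes, Il2, Il2rg and Itgb7 were named, with up to 4 called genes of largest change in each list and comparison having a mean signal of at least 100. Symbols came from the platform annotation, updated through RefSeq (20380 probesets had 1 symbol).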

Additional observations from a re-analysis of the deposited data

Results flagged for a closer look

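In B10 PreS the Gpr83 signal of TCR insHEL replicate 1 was 16.9, far above the other 5 arrays (1.6 to 6.6), and in NOD PreS the Ikzf2 signal of TCR insHEL replicate 1 was 12.6, where the other 5 read 1.6 to 3.2. Both are single arrays that stand apart within a group of 6. Of 22 such groups tested 2 were found, and chance gives about 1 in 20. The change from PreS to S+ differed between the strains by a tested interaction for Il2ra (1.80 at 1420692_at) and for Nrp1 (1.98 at 1418084_at), with NOD changing less in both. At the Il2ra probeset all S+ arrays and the NOD PreS median of 29.9 lie under 32, so its size rests on signals near background. The Il2ra call was lost under 4 of 28 alternatives and the Nrp1 call under 9 of 28, both with day as a block and without the 4 arrays of highest 3' to 5' ratio among them. By signal, all S- arrays of the Nrp1 probeset 1418084_at lay above the S+ arrays in B10 and below them in NOD. On the standardized log2 scale the B10 groups overlapped, with S- replicate 3 (6.454) under S+ replicates 1 and 2 (6.468 and 6.467). The log2 difference was -0.46 in NOD and 0.34 in B10, and the test between the strains gave -0.80 (limma adjusted p = 0.720). The other Nrp1 probesets did not show opposite directions: S- against S+ was -0.07 in B10 and -0.75 in NOD at 1448943_at, and 0.76 and 0.52 at 1448944_at.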

How the results depend on the processing

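Replicate numbers did not pair the arrays (mean correlation of deviations 0.0356 for same-numbered pairs), and with replicate number as a block the counts of called members were unchanged in all 14 comparisons, for example 7 in B10 S+ against PreS. With hybridization day as a block, called members went from 7 to 6 in B10 S+ against PreS, from 6 to 2 in B10 S- against PreS, from 2 to 1 in NOD S+ against PreS, from 3 to 0 in NOD S- against PreS and from 2 to 0 for the strain difference in S+ against PreS. In NOD, 1 day held both S+ and PreS and none held both S- and PreS, and with the block limma called 5 and 0 of all kept probesets there. A filter at 64 left 1 of 2 in B10 S- against S+, as it removed a probeset of Il2ra. No filter and the methods' t-test each left 1 in NOD S+ against PreS, and no filter left 1 for the strain difference in S+ against PreS. A floor of 16 gave 5 between the strains in PreS and 2 in S-, and quantile normalization and the ratio covariate gave 1 in S-. Leaving out the 4 arrays of highest 3' to 5' ratio gave 1 in NOD S+ against PreS and 0 for the strain difference in S+ against PreS, and it left 1 array of NOD S+, assumed to vary like the other groups. Except where an alternative's own construction shows it, the cause was not tested. Leaving out 1 array at a time gave 6 to 7 in B10 S+ against PreS, 5 to 7 in B10 S- against PreS, 2 to 2 in B10 S- against S+, 1 to 3 in NOD S+ against PreS, 2 to 4 in NOD S- against PreS, 3 to 4 between strains in PreS, 0 to 1 in S- and 0 to 3 for the strain difference in S+ against PreS, with 0 in the others. Of the called changes of single probesets, none reversed under any alternative, 43 results by setting lost their call and 488 did not. Signals under 32 have sizes that are not exact.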
